A study of Mus musculus with 8 samples.

Results

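The comparison described here is that of fibroblastic reticular cells (FRCs) treated with tumor-conditioned medium (TCM) with FRCs treated with vehicle. It was defined by the library labels and contrasts 4 of the 8 libraries of the study, the 2 TCM libraries and the 2 vehicle libraries. It covers the 12137 of 55367 listed genes that had at least 10 counts in at least 3 of the 8 libraries. The RNA came from a line of mouse FRCs kept for 4 days in the treatment, with fresh medium after 48 hours, and was selected by poly(A) for sequencing. TCM was RPMI without supplements that B16.F10 melanoma cells had conditioned for 24 hours, which was then filtered at 0.22 µm, frozen, and given with 2% FBS. Vehicle was RPMI that no cell had conditioned, with water added and 2% FBS. The 4 other libraries were of FRCs given control conditioned medium (CCM), which was prepared in the same way from FRCs, or 15 mmol/L lactic acid (LA). All 8 libraries were fitted together, so these 4 also entered the gene filter, the normalization and the estimate of the spread. All groups shared 1 line, made from the lymph nodes of C57BL/6 mice carrying p53 ER/ER, in which p53 is fused to an estrogen receptor domain. The study calls the libraries of a group biological replicates, and the labels do not say whether they came from separate cultures. P values here therefore rest only on the spread between libraries within groups. That spread was estimated jointly over all 4 groups, although it was not equal between TCM and vehicle, as given below.

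FRCs are the fibroblasts that build the conduit and scaffold of lymph nodes. They express the glycoprotein podoplanin (Pdpn), attract lymphocytes with chemokines and supply survival factors such as Il7. Medium from tumor cells carries secreted proteins, vesicles and metabolites, among them lactate, and lacks nutrients that those cells used. Vehicle has been in contact with no cells, whereas CCM has been depleted and enriched by FRCs, so in the comparison with vehicle the effects of conditioning by any cell and those of the tumor cells cannot be told apart.

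Counts per library ranged from 8232889 to 14107964, so that 3 counts, taken as the floor of detection, equaled 0.211 to 0.354 CPM (counts scaled to the size of the library), with counting error only. The libraries of a group differed by more than counting noise, as shown by a chi-square per degree of freedom of 20.6 between the TCM libraries and 4.91 between the vehicle libraries. The line carried *Pdpn* at 114 to 187 CPM, *Vcam1* at 136 to 215 CPM and *Pdgfrb* at 267 to 508 CPM over the 8 libraries. *Ptprc*, which encodes CD45, had 0 counts in every library, and *Pecam1*, which encodes CD31, had 4 to 9 counts. *Thy1*, another fibroblast marker, had 3 and 1 counts in vehicle and 8 and 16 in TCM. *Ccl21a* had 0 counts in every library and *Ccl19* had 1 count in 1 CCM library, so both chemokines of the T cell zone were below the floor. Summed over 14 melanoma and melanocyte markers, TCM libraries held 4.11 and 2.94 CPM and vehicle libraries 3.35 and 4.62, with *Tyr*, *Gpr143* and *Oca2* at 0 in all 8. Most of these counts were of *Pmel*, *Mitf* and *Kit*, which were seen in every library. *Tyrp1*, an enzyme of melanin synthesis, had 6 and 3 counts in the TCM libraries and *Dct*, another, 1 and 1, and both were at 0 in the 6 other libraries. Leukocyte markers summed to 24.7 and 15.5 CPM in TCM and 15.8 and 19.1 in vehicle. Most of these counts were of *Lyz2*, and 8 of the 14 leukocyte markers were at 0 in all 8 libraries. Endothelial markers summed to 51.7 and 48.9 CPM in TCM and 39.9 and 48.6 in vehicle, mostly from *Emcn*. The 8 epithelial markers summed to 1.47 and 1.96 CPM in TCM and 8.14 and 8.32 in vehicle, with *Epcam* at 0 in every library, and the part of these levels in the results was not tested.

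TCM changed the RNA of FRCs widely in both directions. Of the 12137 genes tested, 2121 (17.5%) were called, that is, had an adjusted P value under 0.05 in edgeR's quasi-likelihood test together with a log2 fold change (FC) beyond 0.39. Higher after TCM were 1041 genes (8.58%), with a median log2 FC of 0.685, and lower were 1080 (8.9%), with a median size of 0.804. Changes beyond a log2 FC of 2 numbered 71 among the higher genes and 125 among the lower. The median log2 FC over all genes tested was 0.00462 with normalization factors and −0.105 without them, and 49.1% of the calls were higher with the factors, against 30.5% of 2306 calls without them. Leaving out vehicle replicate 1 or 2 reduced the calls to 1176 and 1128, and here and below libraries were left out 1 at a time. Every result given below is of bulk RNA, in which fewer cells of a kind and less RNA per cell cannot be told apart.

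**Figure D1:**
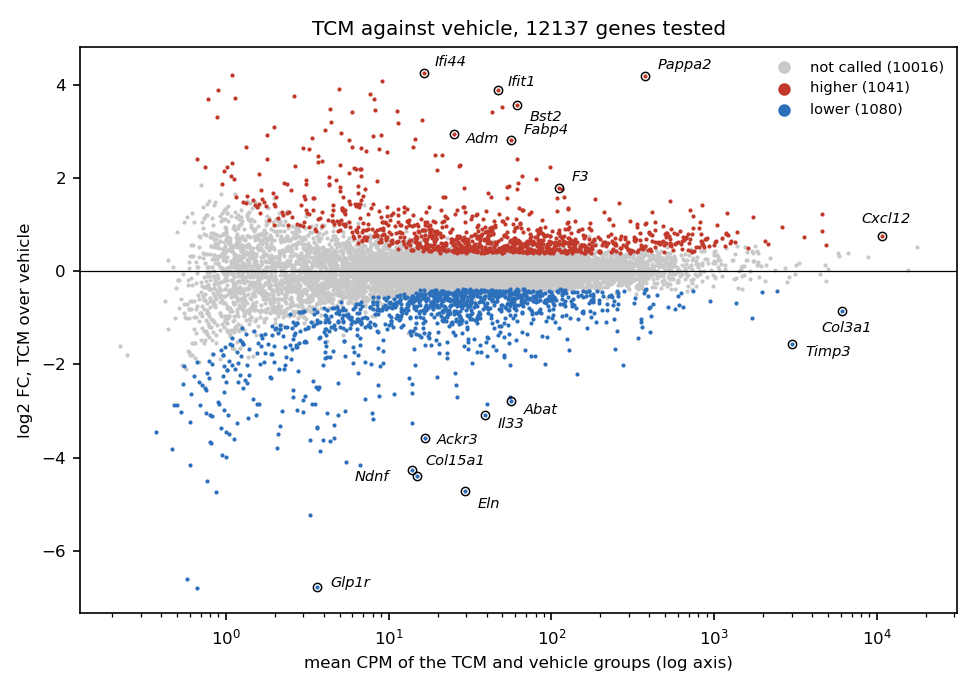
Each point is 1 of the 12137 genes tested, with the mean CPM of the TCM and vehicle groups on a log axis and the log2 FC of TCM over vehicle on the vertical axis. Red points are the 1041 genes called higher, blue points the 1080 called lower, gray points the 10016 not called, and circled genes are discussed in the text. The value plotted for *Glp1r* is a fitted one that rests on 1 count in TCM.

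The genes that rose with the smallest P values included a protease, a peptide hormone and the trigger of coagulation. *Pappa2*, a protease of insulin-like growth factor binding proteins, stood at 36.9 and 40.8 CPM in vehicle and at 532 and 899 CPM in TCM. The log2 FC of *Pappa2* was 4.20 (SE 0.22, adjusted P = 2.8e-06), and the gene lies on the minus strand of chromosome 1 at 158711727 to 158980490 in GRCm38, where the annotation also places *1600012P17Rik* on the same strand. *Adm*, which encodes the vasodilator peptide adrenomedullin, was at 6.69 and 4.99 CPM in vehicle and 43.3 and 45.5 CPM in TCM. *F3*, tissue factor, the starter of blood coagulation, went from 45.3 and 54.7 CPM to 178 and 169. Among these genes, which were picked for small P values, the TCM libraries differed most for *Pappa2*.

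*Fabp4*, a carrier of fatty acids typical of adipocytes and macrophages, had 13.3 and 14.8 CPM in vehicle and 118 and 79.7 CPM in TCM (log2 FC 2.81, SE 0.18). *C1s1*, a protease of the first complement component, had 30.5 and 34.7 CPM in vehicle and 128 and 131 in TCM (log2 FC 1.99, SE 0.11). *Gdf6*, a ligand of the BMP family, rose by a log2 FC of 1.79 (SE 0.12) and *Ifitm3*, an antiviral membrane protein, by 1.47 (SE 0.11). *Gm21680* (log2 FC 3.44) and *Speer3* (3.91) also rose, but near-identical copies of this gene family exist, so their reads may be shared with other members. In CCM, *Fabp4* stood at 35.0 and 34.6 CPM and *C1s1* at 75.3 and 69.2 CPM, and both were higher there than in vehicle, by log2 FCs of 1.30 and 1.15. *Adm* and *F3* had log2 FCs of −0.22 and −0.17 between CCM and vehicle and were not called. Between LA and vehicle *F3* and *Fabp4* were called higher, by log2 FCs of 0.76 and 1.23, and *Adm* and *C1s1* were not called.

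Among the genes that fell, *Eln*, which encodes elastin, the core of elastic fibers, went from 49.8 and 63.6 CPM to 2.21 and 2.07. Its log2 FC was −4.72 (SE 0.23, adjusted P = 2.5e-06), and CCM and LA libraries held 35.4 to 46.5 CPM. *Eln* is on the minus strand of chromosome 5 at 134702593 to 134747323, opposite the annotated *Gm30003*, and whether reads were counted by strand is not given in the sources used here. *Il33*, an alarm cytokine of stromal nuclei, fell from 72.0 and 67.7 CPM to 7.16 and 9.16 (log2 FC −3.10, SE 0.16). *Ackr3*, a scavenging receptor for Cxcl12, fell from 29.9 and 31.7 CPM to 1.89 and 3.27 (log2 FC −3.58, SE 0.22).

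Other genes that fell were *Abat*, a GABA transaminase (log2 FC −2.79), *Tnfrsf21*, a death receptor (−2.84), *Nmnat2*, an enzyme of NAD synthesis (−1.83), *Ndnf*, a secreted growth factor (−4.41), and *Pi16*, a marker of a class of fibroblasts (−4.16). *Angpt1*, a ligand that stabilizes vessels, went from 11.04 and 9.61 CPM to 0.526 and 0.654. *Glp1r*, the receptor of glucagon-like peptide, had 73 and 69 counts in vehicle and 1 and 0 in TCM, too few for a fold. *Ndnf*, *Tnfrsf21* and *Abat* were also lower in CCM than in vehicle, with log2 FCs of −1.41, −0.97 and −0.80.

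**Figure D2:**
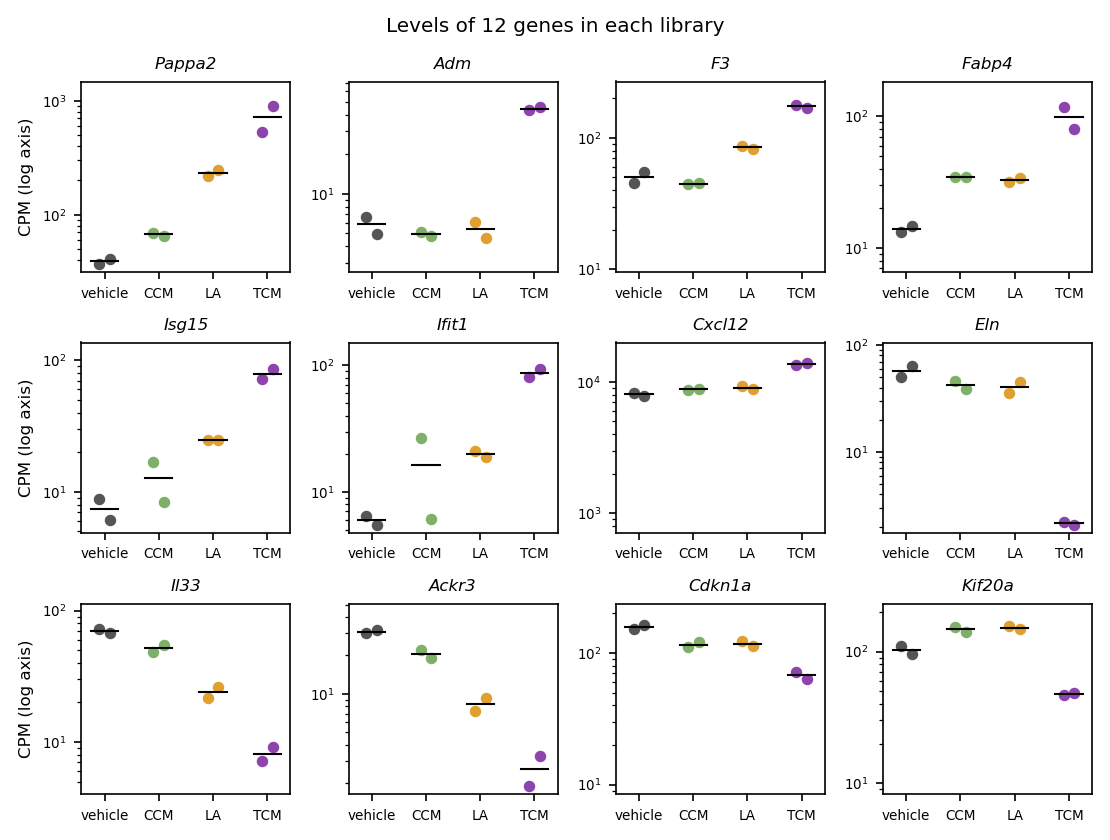
CPM of 12 genes on log axes, with a point for each of the 2 libraries of each group and a line at their mean. For *Adm* only the TCM libraries stand apart. For *Eln* and *Cxcl12* the CCM and LA libraries lie between vehicle and TCM, nearer to vehicle. *Pappa2*, *F3*, *Fabp4*, *Isg15*, *Ifit1*, *Il33*, *Ackr3* and *Cdkn1a* also have LA libraries between vehicle and TCM.

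The gene groups are given next by their counts of calls and their medians, which can be read against 8.58% higher, 8.9% lower and a median of 0.00462 over all genes tested. With all 8 libraries fitted, edgeR called members in 1 direction only in the lists of mitosis, DNA replication, interferon effectors and interferon-inducible GTPases. The same held for the lists of glycolysis, p53 targets, ATF4 genes and ribosomal proteins. In these lists 0 members lay in the other direction by DESeq2, or by edgeR at an unadjusted P value under 0.05. Here and below, counts at an unadjusted P value also required a log2 FC beyond 0.39. The plot of list members shows most of the groups.

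**Figure D3:**
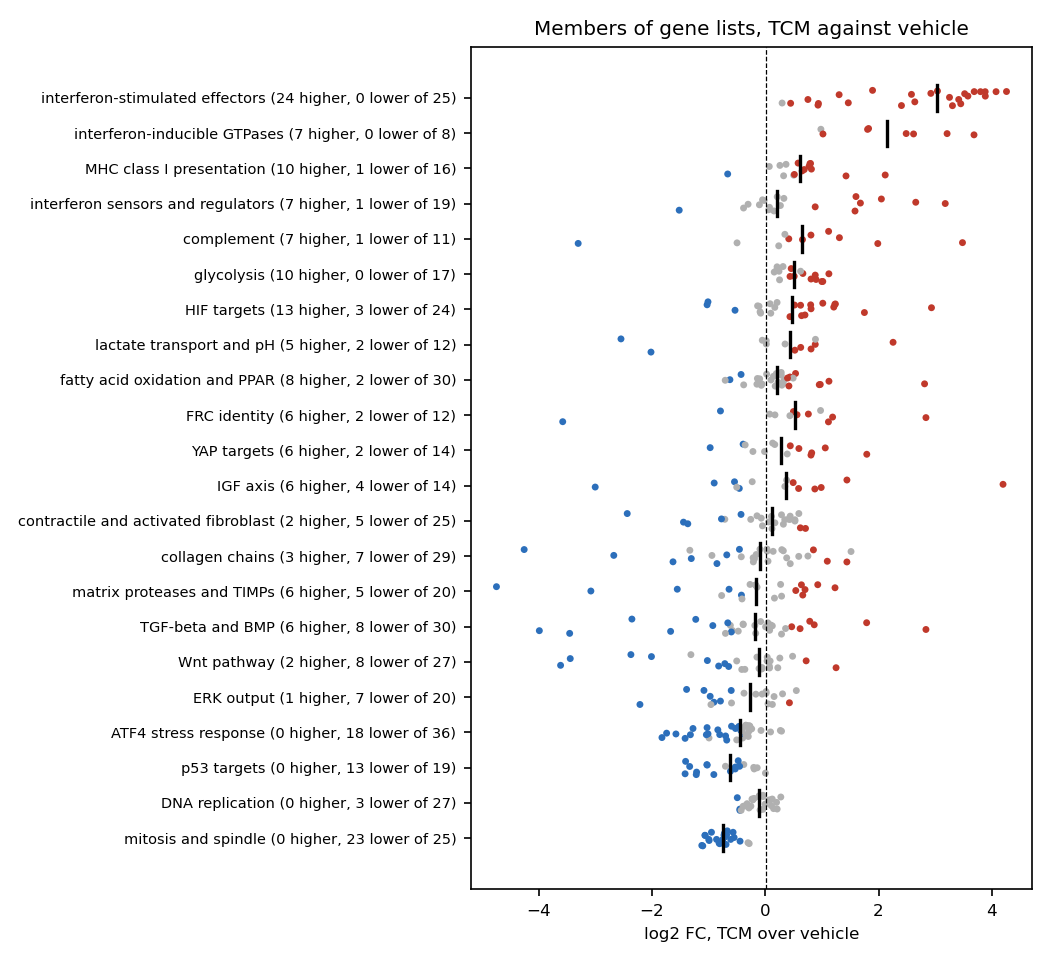
Log2 FC of TCM over vehicle for each tested member of 22 gene lists, with red for higher, blue for lower, gray for not called, a bar at the list median and a dashed line at the median of all genes tested. The medians of the interferon effectors (3.04) and the GTPases (2.16) lie farthest to the right, and that of the mitosis list (−0.75) farthest to the left.

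Interferon-stimulated genes encode the antiviral state of a cell. Interferons bind receptors that activate transcription factors, Stat2 and Irf9 among them, and their complex binds a DNA element of paired GAAA letters before its target genes. Of 32 effectors listed, 25 passed the filter and 24 rose with TCM, with a median log2 FC of 3.04 over the 25. The other member, *Samhd1*, had a log2 FC of 0.30 (adjusted P = 0.073). Calls among them numbered 20 to 21 when a vehicle or TCM library was left out.

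*Isg15*, a ubiquitin-like protein, stood at 8.81 and 6.10 CPM in vehicle and 72.3 and 85.4 CPM in TCM (log2 FC 3.42, SE 0.26, adjusted P = 2.2e-05). *Bst2*, tetherin, which holds budding virus at the membrane, went from 9.93 and 9.05 CPM to 85.3 and 141 (log2 FC 3.58). *Ifit3*, which binds viral RNA with its relatives, went from 7.81 and 8.13 CPM to 80.8 and 103 (log2 FC 3.52). Levels of these genes in vehicle were low but counted. *Ifi44*, *Rtp4* and *Usp18* rose by log2 FCs of 4.26, 4.08 and 3.80 from levels of 0.558 to 2.23 CPM in vehicle. *Ifit1* went from 6.47 and 5.45 CPM to 81.3 and 94.1 (log2 FC 3.88), and its call was lost without either TCM library or without the filter on low counts, although the direction stayed.

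The stretches upstream of 4 of these genes are shown because they hold the letters of the interferon-stimulated response element. They come from RefSeq promoter sequences on GRCm38.p6, which covered 9385 of the 12137 genes tested, read 5′ to 3′ on the strand of the gene, and capitals mark a pair of GAAA letters with 2 bases between them, or the reverse, a pair of TTTC, overlapping matches included.
Isg15: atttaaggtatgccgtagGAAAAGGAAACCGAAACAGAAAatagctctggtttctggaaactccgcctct
Bst2: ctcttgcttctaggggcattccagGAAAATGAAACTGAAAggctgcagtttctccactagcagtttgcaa
Ifit3: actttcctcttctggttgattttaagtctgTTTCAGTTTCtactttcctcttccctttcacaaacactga
Ifit1: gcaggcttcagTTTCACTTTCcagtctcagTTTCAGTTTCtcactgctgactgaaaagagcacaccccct

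The stretches lie at chr4:156200845-156200914 (minus strand), chr8:71537557-71537626 (minus), chr19:34583377-34583446 (plus) and chr19:34640774-34640843 (plus). Stretches were taken only around matches with 30 bases on each side, all before an annotated start. Of such matches, the nearest began 66 bases before the start of *Isg15*, 124 before *Bst2*, 122 before *Ifit3* and 85 before *Ifit1*. In the window of 250 bases before to 50 after a start, 10 of the 17 effectors with a promoter sequence held the letters (58.8%), as did 7 of 7 interferon-inducible GTPases (100%) and 5 of 14 genes of MHC class I presentation (35.7%). Over all genes tested with such a window the share was 3.58%. A match is a description of letters and not of binding. *Ifit3b*, a close copy of *Ifit3*, has the same stretch letter for letter, and reads of the 2 copies may have been split between them.

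Of 19 sensors and regulators of interferon, 7 rose and 1 fell, with a median log2 FC of 0.21. Those that rose included the signal carriers *Stat2* (log2 FC 2.05) and *Irf9* (1.68), and *Irf7* (3.18), an amplifier of interferon. *Socs1*, an inhibitor of the pathway, fell by 1.52 on the log2 scale. Without TCM replicate 1 or 2 the members that fell numbered 2 in place of 1. Of the interferons themselves, *Ifnb1*, *Ifng* and all 13 *Ifna* genes in the table had 0 counts in all 8 libraries, a count that allows up to 3 in a library, and *Ifne* had at most 2. The receptor genes *Ifnar1* and *Ifnar2* had log2 FCs of −0.30 and 0.21 and were not called. The interferon and receptor genes were chosen after the values of the interferon lists were seen.

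The interferon-inducible GTPases attack vacuoles of intracellular pathogens, and 8 of 14 passed the filter. Of these 7 rose, with a median log2 FC of 2.16, among them *Gbp3* (1.23 and 1.11 CPM to 13.8 and 16.5), *Igtp* (log2 FC 2.62), *Irgm2* (2.49) and *Irgm1* (1.02). *Igtp* and *Irgm2* overlap on 1 strand and share close copies, so their counts are not fully separate. In the presentation of peptides on MHC class I, 10 of 16 genes rose and 1 fell, with a median of 0.62. *Psmb8*, a subunit of the immunoproteasome, went from 2.12 CPM in both vehicle libraries to 10.2 and 8.28, *B2m*, the light chain of MHC class I, had a log2 FC of 0.58, and *Tap2*, a peptide transporter, 0.80. The member that fell, *Tapbpl* (−0.66), was not called without vehicle replicate 1, vehicle replicate 2 or TCM replicate 1, and the members that rose numbered 6 without vehicle replicate 2.

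Interferon genes also differed among the other libraries. Relative to the vehicle mean, the median effector stood at 0.92 (log2) in CCM replicate 1, 0.20 in CCM replicate 2, 1.14 in both LA libraries, 1.90 in TCM replicate 1 and 2.68 in TCM replicate 2. The TCM libraries were the highest, and the CCM libraries differed from each other. *Ifit1* had 26.7 and 6.11 CPM in CCM and 21.03 and 18.9 CPM in LA. Between CCM and vehicle 0 of the 25 effectors were called by edgeR, where 158 of all genes (1.3%) were, but 13 had an unadjusted P value under 0.05 with a higher level in CCM, and DESeq2 called 1. Without CCM replicate 2 edgeR called 2, and without either TCM library it called 1. Between LA and vehicle 6 were called, all higher, where 310 of all genes (2.55%) were, 1.31% higher and 1.24% lower, and leaving out single libraries moved this from 1 (without LA replicate 2 or vehicle replicate 2) to 14 (without either TCM library). Between TCM and CCM 21 were higher, against 8.83% of all genes. These comparisons share the vehicle or the TCM libraries, so their values are only set side by side.

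Genes of mitosis were lower in TCM than in vehicle. Of 25 genes of mitosis and the spindle, 23 fell, with a median log2 FC of −0.75. *Kif20a*, a motor of cell division, went from 111 and 95.9 CPM to 46.7 and 48.4 (log2 FC −1.12, SE 0.11, adjusted P = 6.3e-05). *Ccnb1*, the cyclin that drives entry into mitosis, fell by 1.10, *Cenpe*, a kinetochore motor, by 1.07 and *Kif11*, which separates the spindle poles, by 0.95, all on the log2 scale. *Mki67*, which encodes Ki67, went from 124 and 116 CPM to 63.6 and 93.9 (log2 FC −0.61, SE 0.15, adjusted P = 0.017), and its call was lost without vehicle replicate 1, vehicle replicate 2 or TCM replicate 1. Without vehicle replicate 1, 15 of the 25 were called.

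Of 27 genes of DNA replication 3 fell, with a median log2 FC of −0.11, and those 3 were *Rrm2* (−0.49) and *Tyms* (−0.45), enzymes that make nucleotides, and *Mcm7* (−0.45), a subunit of the replicative helicase. None of the 3 was called without vehicle replicate 2. *Mcm5* of the same helicase had 73.6 and 70.1 CPM in vehicle and 57.1 and 60.5 in TCM (adjusted P = 0.059).

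The same lists gave other counts with CCM or LA in the comparison. In CCM, 16 of 25 mitosis genes were higher than in vehicle (0.898% of all genes were), with a median log2 FC of 0.61, and 16 of 27 replication genes were higher, with a median of 0.55. *Kif11* stood at 74.7 and 71.4 CPM in vehicle, 118 and 105 CPM in CCM, 113 and 111 CPM in LA and 37.0 and 38.6 CPM in TCM. *Mcm5* stood at 118 CPM in both CCM libraries. Between TCM and CCM all 25 mitosis genes and 21 of 27 replication genes were lower (10.2% of all genes were), with medians of −1.43 and −0.74. In LA, 20 mitosis genes and 12 replication genes were higher than in vehicle (1.31% of all genes were).

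The calls between CCM and vehicle depended on each library. With any of the 4 libraries of these groups left out, edgeR called 0 mitosis and 0 replication genes, though 21 to 25 mitosis genes and 20 to 23 replication genes kept an unadjusted P value under 0.05 and a higher level in CCM, and DESeq2 called 0 to 3 mitosis genes and 0 to 2 replication genes. Without TCM replicate 1 or 2, edgeR called 24 mitosis genes and 22 replication genes. The LA counts also moved, with 0 to 6 mitosis genes called without a vehicle library, 1 or 3 without an LA library, and 0 to 3 replication genes called without a vehicle, LA or CCM library. The mitosis calls between TCM and CCM numbered 25 whichever of the 8 libraries was left out.

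**Figure D4:**
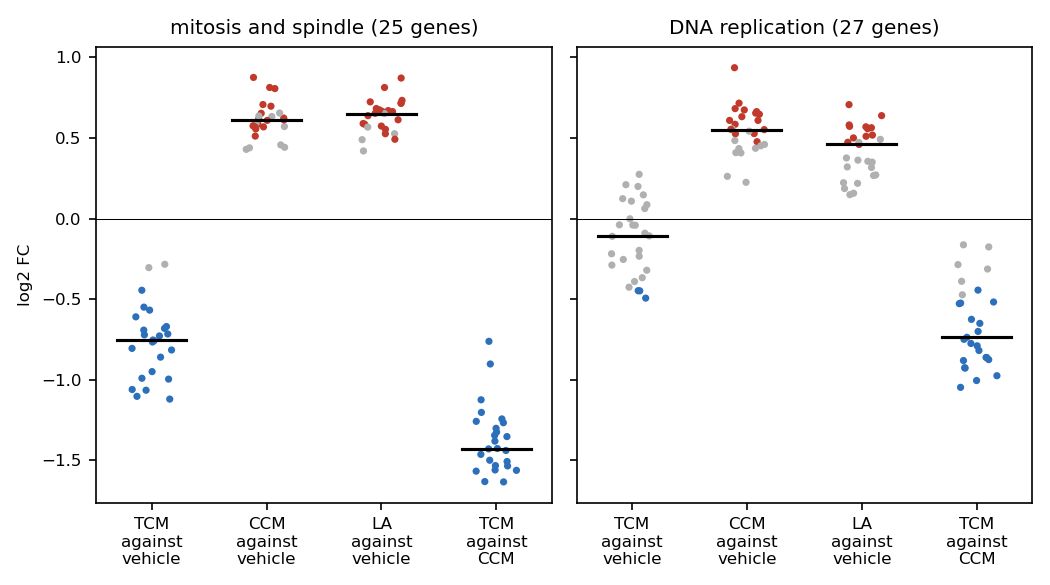
Log2 FC of each gene of mitosis and the spindle (left) and of DNA replication (right) in 4 comparisons, with bars at the medians and red, blue and gray for higher, lower and not called. Mitosis genes lie below 0 for TCM against vehicle and above 0 for CCM and LA against vehicle, and replication genes lie around 0 only for TCM against vehicle.

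*Cdkn1a*, the p21 inhibitor and a target of p53, went from 152 and 162 CPM in vehicle to 71.5 and 63.9 in TCM (log2 FC −1.21, SE 0.10, adjusted P = 3.5e-05). In the list of 9 tested inhibitors and D cyclins it was the only member to fall, and the cyclin *Ccnd3* rose (log2 FC 0.61). Without TCM replicate 1 the members that fell numbered 3. Of 19 p53 targets 13 fell, with a median of −0.62. In this line p53 is fused to an estrogen receptor domain, and whether it was active in any group was not tested. *Sesn2*, a stress sensor that restrains mTORC1, went from 145 and 129 CPM to 45.7 and 56.9, and *Ddit4l* and *Trp53inp1* had log2 FCs of −1.41 and −1.03. *Trp53* itself, from 77.6 and 77.8 CPM to 58.3 and 64.3, had a log2 FC of −0.34 that stayed under the fold threshold (adjusted P = 0.031).

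Glycolysis turns glucose into pyruvate, and Ldha turns pyruvate into lactate. In TCM 10 of 17 glycolytic genes rose, with a median log2 FC of 0.51. *Pfkl*, a phosphofructokinase, went from 152 and 132 CPM to 322 and 296 (log2 FC 1.12, SE 0.10), *Aldoa*, an aldolase, from 737 and 661 to 1462 and 1331.5, and *Ldha* from 629 and 585 to 1137 and 989 (log2 FC 0.81, SE 0.11). In CCM *Ldha* was at 528 and 555 CPM.

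Many glycolytic genes are also targets of HIF, the factor stabilized at low oxygen, and of 24 HIF targets 13 rose and 3 fell, with a median of 0.48. Beside *Adm*, *Pdk1*, which keeps pyruvate out of mitochondria, went from 45.2 and 42.0 CPM to 97.1 and 107, and *Bnip3*, a receptor for the removal of mitochondria, from 27.7 and 29.3 CPM to 79.6 and 54.8. *Vegfa*, a widely used HIF target, was at 108 and 81.1 CPM in vehicle and 94.9 and 105 in TCM (log2 FC 0.08, adjusted P = 0.73). The members that fell were *Ndrg1* (−1.03), a differentiation gene, *Ddit4* (−1.01), an inhibitor of mTORC1, and *Pfkfb3* (−0.53), a regulator of glycolysis whose call was lost without vehicle replicate 1, vehicle replicate 2 or TCM replicate 1. *Hif1a* had 202 and 218 CPM in vehicle and 154 and 184 in TCM (log2 FC −0.31, adjusted P = 0.061). Among LA libraries *Adm*, *Pdk1* and *Ldha* had log2 FCs of −0.13, 0.06 and 0.15 against vehicle and were not called.

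HIF binds sites that hold ACGTG. Stretches upstream of an annotated start of 3 genes that rose are shown with ACGTG or its reverse CACGT in capitals, from the same RefSeq sequences.
Pgk1: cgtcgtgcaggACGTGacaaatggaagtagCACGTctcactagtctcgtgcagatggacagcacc
Bnip3: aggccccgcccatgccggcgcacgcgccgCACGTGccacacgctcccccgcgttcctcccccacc
Ldha: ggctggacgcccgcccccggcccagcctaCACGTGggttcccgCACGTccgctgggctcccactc

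They lie at chrX:106186939-106187003 (plus strand), chr7:138909579-138909643 (minus) and chr7:46845727-46845791 (plus). The *Ldha* stretch lies inside the gene as annotated, which begins at 46841475, and before a later RefSeq start. In CACGTG the motif and its reverse overlap. Of 20 HIF targets with a promoter window 16 held the letters (80%), as did 10 of 17 glycolytic genes (58.8%), beside 29.8% of all genes tested. The lists differed from all genes in annotated starts per gene too, with 1.55 and 1.59 windows per gene and 1.28 over all genes. *Ddit4* and *Pfkfb3*, which fell, and *Vegfa* also held the letters. The stretches found for *Pfkfb3* and *Vegfa* lie inside these genes as annotated and before later RefSeq starts, as that of *Ldha* does.

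Of 12 genes for lactate transport and pH, 5 rose and 2 fell. *Slc16a3*, the lactate exporter Mct4, went from 1.00 and 0.831 CPM to 3.37 and 5.45 (log2 FC 2.26, SE 0.40, adjusted P = 0.0026). *Slc16a1*, the carrier Mct1, had 32.8 and 32.9 CPM in vehicle and 43.3 and 40.4 in TCM, a log2 FC of 0.35 under the fold threshold (adjusted P = 0.042). *Bsg*, which escorts both carriers to the membrane, had a log2 FC of 0.52, with its call lost without either vehicle library or without TCM replicate 1. Members that rose numbered 3 without either vehicle library, and those that fell, the carbonic anhydrase *Car2* and the bicarbonate carrier *Slc4a4*, were both lost without vehicle replicate 2 or TCM replicate 1, with 1 left without TCM replicate 2.

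In fatty acid oxidation and its control by PPAR factors, 8 of 30 genes rose and 2 fell, with a median of 0.21. Beside *Fabp4*, *Pdk4*, which spares glucose when fat is burned, went from 21.3 and 26.3 CPM to 48.8 and 55.5 (log2 FC 1.12), and *Pparg*, the factor of adipocyte formation, rose by a log2 FC of 0.97 (SE 0.17). *Ppard* had a log2 FC of 0.14 (adjusted P = 0.50). The members that rose numbered 4 without vehicle replicate 1, vehicle replicate 2 or TCM replicate 1. The members that fell were *Acot2* and the carrier *Fabp5*. Neither was called without vehicle replicate 1 or 2, and without TCM replicate 2 the members that fell numbered 1.

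The ATF4 program provides amino acids and their transporters under nutrient or protein stress, and 18 of its 36 genes fell, with a median log2 FC of −0.45. Fewer were called lower without vehicle replicate 1 or TCM replicate 1, and without TCM replicate 1 calls in both directions appeared. *Nupr1*, a stress-induced nuclear protein, went from 57.0 and 49.9 CPM to 16.6 and 15.3 (log2 FC −1.74, SE 0.12, adjusted P = 1.2e-05). *Psat1*, an enzyme of serine synthesis, went from 393 and 327 CPM to 146 and 151, and *Slc7a11*, the cystine importer, from 40.6 and 35.7 to 14.6 and 22.5 (log2 FC −1.04). The letters TGATGNAA or their reverse, the core of the composite site of this factor, were in the promoter windows of 10 of 29 members (34.5%) and in 2.67% of all genes tested.

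Genes that define FRCs moved in both directions. Of 12 tested members of an identity list of 20, 6 rose and 2 fell. *Pdpn* was at 114 and 137 CPM in vehicle and 187 and 185 in TCM (log2 FC 0.56, SE 0.10, adjusted P = 0.0035). *Cxcl12*, which holds lymphocytes and stem cells in their niches, went from 8266 and 7791 CPM to 13407 and 13808 (log2 FC 0.76, SE 0.11). *Grem1*, a secreted BMP antagonist, went from 1.56 and 5.36 CPM to 23.9 and 27.6, and *Cd34* and *Ly6a* had log2 FCs of 1.12 and 1.19. *Vcam1*, an adhesion molecule, rose by a log2 FC of 0.50, a call lost without vehicle replicate 1 and without normalization factors. *Pdgfrb*, a receptor of platelet-derived growth factor, fell from 508 and 503 CPM to 267 and 317, and *Ackr3*, given above, was the other member that fell. *Il7* had 0.558 and 0.924 CPM in vehicle and 1.47 and 1.53 in TCM (log2 FC 0.98, SE 0.41, adjusted P = 0.13), a level of few counts.

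Of 17 tested chemokines and cytokines 3 rose and 5 fell. *Csf1*, the growth factor of macrophages, went from 744 and 688 CPM to 1580 and 1822 (log2 FC 1.25), and *Ccl9* rose from a low level (log2 FC 1.43). *Lif* and *Cxcl15* fell by 2.54 and 2.63 on the log2 scale. *Cxcl1*, a neutrophil attractant, had 58.3 and 29.1 CPM in vehicle and 9.26 and 6.65 in TCM (log2 FC −2.44), and it was not called without either TCM library or without the filter. The members that fell numbered 3 without either TCM library.

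Among 29 tested collagen chains 3 rose and 7 fell, with a median of −0.09. *Col1a1*, the main chain of type I collagen, stood at 15385 and 15408 CPM in vehicle and 14618 and 16824 in TCM (log2 FC 0.03, adjusted P = 0.89). *Col3a1*, of the reticular fibers that FRCs lay down, fell from 7622 and 8152 CPM to 4295.5 and 4437 (log2 FC −0.85, SE 0.11, adjusted P = 0.00039). *Col5a3* and *Col6a2* fell by 1.31 and 0.68 on the log2 scale. *Col15a1*, of basement membranes, went from 20.3 and 33.0 CPM to 1.47 and 1.31, and its call was lost without either TCM library and without the filter. Of those that rose, *Col1a2* was at 6.36 and 6.65 CPM in vehicle and 12.7 and 15.2 in TCM, *Col20a1* had a log2 FC of 1.44, and *Col7a1*, with 0.85, was not called without vehicle replicate 2. The level of *Col1a2* was far below that of *Col1a1*. The annotation places *Gm43921* over *Col1a2* on the same strand, so the counts of *Col1a2* may lack reads, which was not tested.

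In the list of elastic fibers and microfibrils 3 of 22 rose and 3 fell. Beside *Eln*, *Fbn1*, the main microfibril protein, fell from 2194 and 2349 CPM to 905 and 1345, and *Mfap4* fell by 1.43 on the log2 scale, a call lost without vehicle replicate 2. *Lox*, which crosslinks collagen and elastin, rose from 2748 and 2591 CPM to 4121 and 4766, in the direction opposite to *Eln*. *Emilin2* and *Mfap2* rose by log2 FCs of 0.78 and 1.05, the latter not without vehicle replicate 1.

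Of 20 matrix proteases and their inhibitors 6 rose and 5 fell. *Adamts1*, which cuts proteoglycans, rose from 3007 and 2470.5 CPM to 6019 and 6846, and *Adamts5* rose by a log2 FC of 0.93. *Timp3*, an inhibitor of these same proteases, fell from 4164 and 4867 CPM to 1432 and 1645 (log2 FC −1.55, SE 0.12, adjusted P = 2.2e-05). *Timp3* was also lower in CCM (2618 and 2592 CPM) and in LA (2321 and 2422 CPM) than in vehicle, with the TCM libraries lowest. *Mmp15* fell by 3.08 on the log2 scale. Members that rose numbered 3 without vehicle replicate 1, and those that fell numbered 2 without vehicle replicate 2 or TCM replicate 1 and 8 without TCM replicate 2.

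Genes of contractile and activated fibroblasts were called in both directions, with 2 of 25 higher and 5 lower. *Acta2*, smooth muscle actin, was at 4871 and 5592 CPM in vehicle and 7030 and 6030 in TCM (log2 FC 0.32, adjusted P = 0.12). *Myl9* and *Tpm4* rose by log2 FCs of 0.71 and 0.62, and *Tnc*, *Actg2*, *Mylk* and *Myh11* fell. Only *Tpm4* of these kept its call whichever vehicle or TCM library was left out, and in those settings 1 (without vehicle replicate 1) to 7 (without TCM replicate 2) members were higher. The lower members numbered 2 without vehicle replicate 1 or TCM replicate 1 and 1 without TCM replicate 2, and none was called without vehicle replicate 2. DESeq2 called 7 higher and 3 lower.

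In the TGF-beta and BMP list 6 of 30 rose and 8 fell. The ligand *Tgfb3* fell from 323 and 426 CPM to 115 and 120 and the receptor *Tgfbr2* from 214 and 247 CPM to 86.9 and 110, whereas the ligands *Gdf6* and *Inhbb* and the antagonist *Grem1* rose. Of 27 genes of the Wnt pathway 2 rose and 8 fell. The ligands *Wnt4*, *Wnt2* and *Wnt5a* fell by 3.61, 2.01 and 1.02 on the log2 scale and the receptor *Fzd4* by 0.71, and *Rspo3*, which enhances Wnt signals, rose from 179 and 193 CPM to 315 and 297. *Wnt2b* rose too (log2 FC 1.25), but not by DESeq2 and not without vehicle replicate 1, vehicle replicate 2 or TCM replicate 2.

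Of 20 genes induced by ERK signaling 1 rose and 7 fell. *Dusp6*, a phosphatase that limits ERK, went from 24.5 and 26.0 CPM to 9.05 and 10.2 (log2 FC −1.39, SE 0.15). *Egr1*, an immediate early gene, had 311 and 165 CPM in vehicle and 49.7 and 52.9 in TCM, with its call lost without either TCM library or without the filter. The members that fell numbered 3 without vehicle replicate 1 and 4 without either TCM library, and the one that rose, *Spry2*, was lost without either vehicle library or TCM replicate 2. Of 14 targets of YAP 6 rose and 2 fell. Beside *F3*, *Crim1*, *Ankrd1* and *Amotl2* rose by log2 FCs of 1.06, 0.81 and 0.82, and *Ccn4* fell by 0.97 on the log2 scale. The other member that fell, *Ajuba* (−0.39), was called with all 8 libraries but not with only the 4 libraries compared, nor with a replicate block in either set. The members that fell numbered 1 without vehicle replicate 1, vehicle replicate 2 or TCM replicate 1.

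Of 11 complement genes 7 rose and 1 fell, with a median of 0.66. *C4b*, the component that C1s cuts, went from 0.781 and 0.647 CPM to 7.37 and 8.72 (log2 FC 3.48), *C1ra* from 37.6 and 39.1 CPM to 92.2 and 98.0, and *C1rl* rose by a log2 FC of 1.12. *Colec11*, a collectin that starts the lectin pathway, fell from 5.91 and 10.99 CPM to 1.05 and 0.654. Of 14 genes of coagulation and plasminogen 6 rose and 3 fell. *Plat*, an activator of plasminogen, fell by 0.69 and *Serpine2*, a protease inhibitor, by 1.39 on the log2 scale.

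Of 14 genes of the insulin-like growth factor axis 6 rose and 4 fell. Beside *Pappa2*, the binding proteins *Igfbp7* (148 and 171 CPM to 353 and 280) and *Igfbp2* (4.13 and 4.53 CPM to 14.1 and 9.48) rose. *Igfbp4*, which the related protease Pappa cuts, fell from 263 and 213 CPM to 131 and 124, and *Stc1*, a secreted hormone, fell from 10.9 and 8.22 CPM to 1.58 and 0.763. *Igf1*, the growth factor itself, fell from 195 and 233 CPM to 139 and 156 (log2 FC −0.54), a call lost without vehicle replicate 2 or TCM replicate 1. Members that rose numbered 3 without vehicle replicate 1, and those that fell numbered 2 without vehicle replicate 2.

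Of 22 angiogenic and vasoactive genes 6 rose and 7 fell. *Edn1*, the vasoconstrictor endothelin, rose from 12.05 and 6.84 CPM to 42.3 and 46.5 (log2 FC 2.25) beside the vasodilator *Adm*, and *Calcrl*, the receptor chain for adrenomedullin, fell from 50.5 and 62.3 CPM to 15.6 and 18.5 (log2 FC −1.73, SE 0.17). *Angpt4* rose, and *Angpt1* and *Nts*, a vasoactive peptide, fell. *Nts* was higher in LA than in vehicle, with a log2 FC of 1.09, so that LA and TCM stood on opposite sides of vehicle for it, and that difference between LA and TCM was not tested. Members that fell numbered 4 without either vehicle library.

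Transcripts of the ribosome and of oxidative phosphorylation depended on which TCM library was counted. Of 78 cytoplasmic ribosomal proteins 53 were called higher in TCM and 0 lower, with a median log2 FC of 0.57. The count was 71 without TCM replicate 2, 19 without TCM replicate 1, 17 without vehicle replicate 1 and 2 without vehicle replicate 2. It was 31 with no normalization factors and 35 when only the 4 TCM and vehicle libraries were fitted. *Rpl39* was at 292 and 272 CPM in vehicle but 768 and 402 in TCM. In TCM replicate 1, 77 of the 78 were higher than in replicate 2, with a median log2 ratio of 0.516, where the median over all genes was 0.00428. Relative to the vehicle mean the median stood at 0.831 and 0.272 (log2) in the TCM libraries. These genes have many processed copies in the genome, which can take or lend reads.

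The subunits of oxidative phosphorylation encoded in the nucleus differed between the TCM libraries too. Of 80, 4 were called higher, all 4 lost without either vehicle library or without TCM replicate 1, whereas without TCM replicate 2 the higher members numbered 47. TCM replicate 1 was above replicate 2 for 78 of the 80 genes, with a median log2 ratio of 0.519, and relative to vehicle the median stood at 0.444 in replicate 1 and −0.00813 in replicate 2. *Uqcrh*, of complex III, had 101 and 103 CPM in vehicle and 203 and 123 in TCM. No direction in TCM is therefore given for this list. Of 7 subunits encoded in mitochondria 2 were called higher, *mt-Co1* (2007 and 1562 CPM to 3655 and 3216) and *mt-Nd6*, the latter lost without either vehicle library or TCM replicate 1. The interferon effectors went the other way between the TCM libraries, with 1 of 25 higher in replicate 1 than in replicate 2, but both lay above vehicle.

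**Figure D5:**
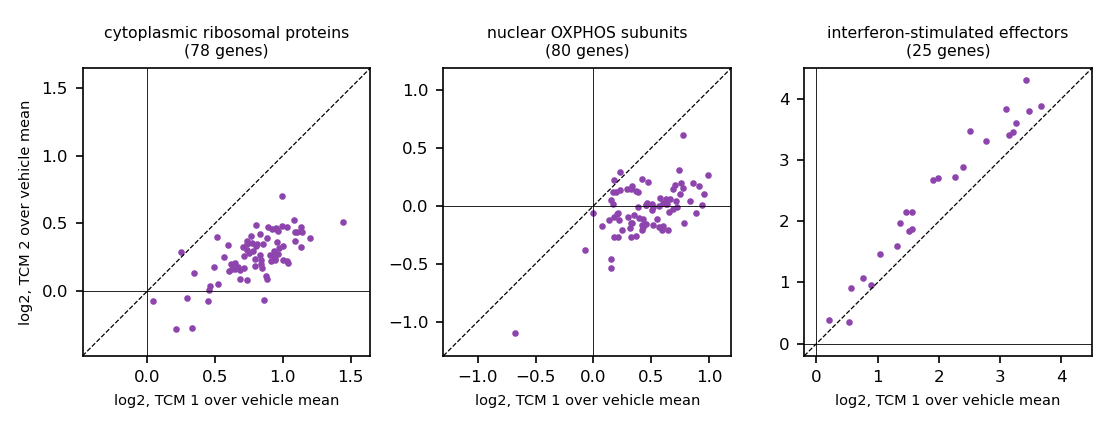
Log2 ratio of CPM (with 0.5 added) to the vehicle mean for each member of 3 lists, with TCM replicate 1 on the horizontal and TCM replicate 2 on the vertical axis and a dashed line where both are equal. Of the ribosomal genes 77 of 78 and of the oxidative phosphorylation genes 78 of 80 are higher in replicate 1, as is 1 of 25 interferon effectors.

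Genes that set CCM apart from vehicle were not always those of TCM. *Serpinb9b*, an inhibitor of proteases with close copies in the genome, was at 87.9 and 72.1 CPM in vehicle, 80.2 and 78.9 in TCM, 34.5 and 37.5 in CCM and 32.7 and 30.9 in LA, so that the TCM libraries lay within the vehicle range. *Rsrp1* was at 118 and 115 CPM in vehicle, 116 and 105 in TCM and 196 and 185 in CCM. *Ptprd*, a receptor phosphatase, was at 64.5 and 69.2 CPM in vehicle and lower in both conditioned media, at 36.1 and 40.8 in TCM and 39.0 and 36.2 in CCM. In the 3 comparisons edgeR called 2121 genes between TCM and vehicle, 2314 (19.1%) between TCM and CCM and 158 (1.3%) between CCM and vehicle, and leaving out single libraries moved the last from 0 (without vehicle replicate 1 or CCM replicate 1) to 497 (without TCM replicate 1). Without vehicle replicate 1, 632 genes were higher and 336 lower at an unadjusted P value under 0.05, and DESeq2 called 14 and 14. Without CCM replicate 1, these were 455 and 311, and DESeq2 called 3 and 7.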

How the data were processed

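Poly(A) RNA of 8 libraries, 2 per condition, was compared. The authors prepared directional libraries, aligned reads with STAR 2.7.0a to GRCm38 (Ensembl release 100) and deposited raw counts per gene made with featureCounts (Subread 2.0.1), whose strand setting is not given in the sources used here. DESeq2 1.32.0 is named in the submitters' processing notes. A second deposited table, named as normalized, equaled the raw counts for all 12137 of its genes.

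Genes that reached 10 counts in 3 or more libraries entered edgeR 4.0.16 (R 4.3.3), with TMM factors, 1 mean per condition over all 8 libraries, and robust quasi-likelihood tests. P values were adjusted by Benjamini-Hochberg. Calls required adjusted P < 0.05 and a log2 FC beyond 0.39. CPM used TMM-scaled library sizes. The script was tested on simulated data. DESeq2 1.42.0 (Wald test), other filters, thresholds and normalizations, a replicate block and leaving out each library were alternatives.

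The members of the comparison and the gene lists were chosen with earlier results of these data known. Genes named were those of smallest P (8 per direction), of largest fold (8, at least 5 CPM), up to 4 called members per list and direction, 3 per direction that differed most between TCM libraries, 5 per direction of CCM against vehicle, and a short list named whatever its values. Others were chosen after their values were seen. Some genes that the rule named are not reported here. Positions came from GENCODE on GRCm38 and promoters from RefSeq. With 2 libraries against 2, an exact permutation test of a single value cannot go below P = 0.333, so it was not used.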

Additional observations from a re-analysis of the deposited data

How the results depend on the processing

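None of the 221 named genes changed the sign of its log2 FC while called under the alternatives run, but the balance of calls within some lists turned, as given with them. The median log2 FC over all genes tested was −0.00937 without TCM replicate 1. Between TCM and vehicle 1199 genes (527 higher, 672 lower) passed a log2 FC of 0.68, 668 (264 and 404) passed 1, and 825 (362 and 463) passed edgeR's test against 0.39. Between CCM and vehicle these were 84, 19 and 2, and between TCM and CCM 1331, 760 and 979. For CCM against vehicle, 584 genes were called with no filter, 679 with only the 4 libraries compared, and 1013 at an unadjusted P value. Leaving out single libraries gave 1128 to 2904 calls between TCM and vehicle (515 to 1514 higher, 613 to 1390 lower), 0 to 497 between CCM and vehicle and 1195 to 2864 between TCM and CCM. DESeq2 called 1824 genes between TCM and vehicle, of which 1762 were shared in direction with edgeR. The correlation of deviations by replicate number was 0.13 between vehicle and TCM, 0.386 between vehicle and LA and 0.124 between LA and TCM. With CCM it was −0.0522 for vehicle, −0.0894 for LA and −0.278 for TCM. Whether replicate numbers pair the libraries cannot be told from these values. With the replicate block, 2206 genes were called between TCM and vehicle. With only the 4 libraries these were 1635 without the block and 2452 with it, and the block gave 778 between CCM and vehicle. With the numbers of the CCM libraries exchanged in the block, an alternative added after the data were seen, 2675 genes were called between TCM and CCM. Of 221 named genes, 41 and 49 calls were lost without vehicle replicate 1 or 2, 31 and 16 without TCM replicate 1 or 2, 12 without normalization factors and 11 by DESeq2. The causes of these shifts were not tested. Depth limits genes near 3 counts, such as the transcripts of interferons.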

Other observations

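Some gene groups were not described above. Of 29 lysosomal genes 6 were higher in TCM than in vehicle and 2 lower, with a median log2 FC of 0.18. *Ctsl*, a cathepsin that degrades proteins in lysosomes, went from 300.3 and 305 CPM to 601 and 521 (log2 FC 0.89, SE 0.11), and *Lgmn*, another lysosomal protease, from 82.0 and 79.1 to 154 and 132. *Tfe3*, a regulator of lysosome genes, was lower, with a log2 FC of −0.58. The higher members numbered 2 without vehicle replicate 1. Of 15 genes listed by the *Kcn* symbols of potassium channels 5 rose and 4 fell. One that rose, *Kcnq1ot1*, is an antisense RNA opposite *Kcnq1* and no channel gene, and DESeq2 did not call it. *Kcna4* went from 1.12 and 1.66 CPM to 9.37 and 10.7 and *Kcnab1*, an auxiliary subunit, from 0.781 and 1.20 to 10.4 and 11.3 (log2 FC 3.42), whereas *Kcnmb4*, another auxiliary subunit, went from 5.47 and 7.85 to 0.526 and 0.763. The members that rose numbered 3 without vehicle replicate 1 or TCM replicate 1 and 2 without vehicle replicate 2, and DESeq2 called 2.

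Of 23 genes of sterol synthesis 4 rose and 2 fell, with a median of 0.19, and *Insig1*, which holds the sterol sensor in the endoplasmic reticulum, went from 106 and 111 CPM to 158 and 168. Those that rose numbered 1 without vehicle replicate 1 and 2 without vehicle replicate 2, and those that fell numbered 0 without vehicle replicate 1. Of 23 targets of NRF2, the factor of the antioxidant response, 2 rose and 3 fell, with *Ephx1*, an epoxide hydrolase, at 319 and 328 CPM in vehicle and 185 and 186 in TCM. Those that rose numbered 8 without TCM replicate 2, 1 without vehicle replicate 1 or TCM replicate 1, and 0 without vehicle replicate 2. Of 19 chaperones of the endoplasmic reticulum 2 rose and 1 fell, with a median of 0.04, and without vehicle replicate 1 these were 1 and 0. Some genes differed between the TCM libraries while both lay beyond vehicle. *Neb*, a giant muscle protein, was at 5.24 and 6.37 CPM in vehicle and 22.3 and 43.4 in TCM, and *Hopx*, a homeodomain protein, was at 30.5 and 35.6 CPM in vehicle and 8.74 and 4.91 in TCM.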
